A study of Mus musculus with 12 samples.

Results

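The phagocyte NADPH oxidase and the receptor pathway that switches it on were followed in mouse liver through 9 genes. Cybb, Cyba, Ncf1 and Ncf4 encode oxidase subunits, Tyrobp and Fcer1g encode adaptors with an immunoreceptor tyrosine-based activation motif (ITAM), Syk encodes the kinase that docks on that motif, and Itgb2 and Itgam encode the chains of an integrin that signals through the same adaptors. The genes were chosen by symbol and make up 9 of the 24411 genes in the deposited table. All 9 passed the filter on low counts that left 13922 genes to be tested. In Atg7-KO livers 8 of the 9 rose, from 3.38-fold for Ncf4 to 9.44-fold for Cybb, where 21.6% of all tested genes were called higher. In Atg7-KO;p62T352A livers all 9 were lower than in Atg7-KO, where 26.2% of all tested genes were called lower. In RNA of a whole organ, more cells of a type and more RNA per cell cannot be told apart.

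The oxidase is an enzyme of neutrophils, monocytes and macrophages that passes electrons from NADPH across a membrane to oxygen and so makes superoxide. Its catalytic core sits in the membrane, and cytosolic subunits join it once a receptor has been engaged. Many of those receptors have no signalling tail and borrow one from Tyrobp or Fcer1g, whose paired tyrosines are phosphorylated by Src family kinases and then bind Syk. In liver most of these genes are known mainly from Kupffer cells, the resident macrophages, and from blood phagocytes that enter an injured organ.

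Poly(A) RNA was sequenced from the livers of 9 C57BL/6 mice, stated in the study to be 3 months old. The deposited values are RSEM expected counts, and a level below is a CPM value (each count relative to the scaled size of its library), called normalized CPM. All 9 mice were Atg7flox/flox, so the 3 cont. mice carried the floxed alleles without Cre. The 3 Atg7-KO mice carried Alb-Cre in addition. The 3 Atg7-KO;p62T352A mice carried Alb-Cre and were homozygous for p62T352A, an exchange in the endogenous p62 gene Sqstm1 that was introduced by prime editing in embryonic stem cells derived from C57BL/6N. Alb-Cre is driven by the albumin promoter and acts in hepatocytes, so that leukocytes keep Atg7, whereas a germline exchange is present in every cell. Mice with p62T352A and no Cre were not analysed here. Libraries held 9671080 to 23285132 counts in cont. (median 11108106), 16157269 to 18480553 in Atg7-KO (median 17769542) and 16133620 to 17357172 in Atg7-KO;p62T352A mice (median 16407801).

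Atg7 itself was checked first. Its normalized CPM was 46.4, 44.2 and 55.4 in cont. mice, 10.1, 9.57 and 12.0 in Atg7-KO mice and 29.7, 27.4 and 29.5 in Atg7-KO;p62T352A mice. The groups did not overlap, and the Atg7-KO;p62T352A mice lay between the others. Atg7 was lower than in cont. in both (log2 fold change -2.20 ± 0.17 SE and -0.75 ± 0.16) and higher in Atg7-KO;p62T352A than in Atg7-KO livers (1.45 ± 0.17, FDR = 0.000164, edgeR). Each difference between those 2 genotypes below therefore goes with a difference in Atg7 RNA, whose part in it was not tested. At the protein level, the paper found ATG7 almost absent from cytoplasmic immunoblots of Atg7-KO livers, whether or not p62 was mutated. The call of Atg7 against cont. in Atg7-KO;p62T352A livers was lost without any 1 of those mice (FDR 0.0524 to 0.07, edgeR). Sqstm1 had 505, 341 and 314 normalized CPM in cont. mice, 911, 871 and 960 in Atg7-KO mice and 497, 626 and 511 in Atg7-KO;p62T352A mice. Nqo1, an NRF2 target, was far higher in Atg7-KO mice (175, 219 and 249) than in cont. mice (6.36, 7.28 and 12.2) and Atg7-KO;p62T352A mice (11.7, 13.2 and 18.4). The 7 hepatocyte markers summed to 45931 or more normalized CPM in every library, as the label liver requires.

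1 library stood apart. Between cont. mouse 1 and cont. mice 2 and 3 the chi-square per degree of freedom of the counts was 196 and 305, against 52 between cont. mice 2 and 3, 13.3 to 21.6 among Atg7-KO mice and 55.1 to 115 among Atg7-KO;p62T352A mice. The mice numbered 1 also differed from the others in Xist, the X-inactivation transcript, with 7, 28 and 9 counts against 8578 to 18335, and the labels give no sex. Each genotype holds 1 such mouse. Results that change without them are given both ways.

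The motif that gives the pathway its name is shown for both adaptors, because it is the feature they share besides their rise. It was found by a script as a tyrosine, 2 residues, leucine or isoleucine, then 6 to 8 residues and the same again. The coding stretch of 45 bases is printed from the GRCm38 transcripts, with the codons of both tyrosines in capitals. It spans an exon boundary in each gene, at chr7:30415670-30417382 on the plus strand for Tyrobp (residues 92 to 106 of 114) and at chr1:171229889-171230072 on the minus strand for Fcer1g (residues 65 to 79 of 86).
Tyrobp: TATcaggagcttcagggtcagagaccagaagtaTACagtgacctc
Fcer1g: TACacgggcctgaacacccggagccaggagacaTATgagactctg
Both have 7 residues between the leucine of the first tyrosine box and the tyrosine of the next. Of 21591 genes with a complete coding sequence, 632 (2.93%) hold the same pattern, so that it alone does not mark an ITAM.

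Cybb encodes NOX2, the catalytic subunit, and lies on chrX:9435252-9487771. Its level was 20.0, 16.8 and 13.8 normalized CPM in cont. mice, 158, 158 and 164 in Atg7-KO mice and 20.6, 23.7 and 39.5 in Atg7-KO;p62T352A mice. The Atg7-KO mice lay far above the others, and the lowest Atg7-KO;p62T352A mouse (20.6) was barely above the highest cont. mouse (20.0). In Atg7-KO livers it was 9.44-fold higher than in cont. (log2 fold change 3.24 ± 0.27 SE, FDR = 3.8e-05, edgeR), the largest rise among the 9. Of all genes tested, 21.6% were called higher in this comparison at an FDR under 0.05 and a fold change over 1.5, and 22.1% lower. In Atg7-KO;p62T352A livers Cybb was lower than in Atg7-KO by 5.72-fold (log2 -2.52 ± 0.26, FDR = 0.000107, edgeR). Its difference from cont. there, 0.72 ± 0.25 on the log2 scale, was not called with all mice (FDR = 0.0946, edgeR), whereas it was without cont. mouse 1 (0.87, FDR = 0.0355) and without all mice numbered 1 (1.04, FDR = 0.0256).

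Cyba encodes p22phox, the membrane partner that holds NOX2 stable, and lies on chr8:122424776-122432930. Normalized CPM was 9.28, 9.46 and 11.5 in cont. mice, 40.5, 37.7 and 44.8 in Atg7-KO mice and 10.1, 17.4 and 14.4 in Atg7-KO;p62T352A mice. Atg7-KO mice stood alone, while the other genotypes overlapped. The gene rose 4.07-fold in Atg7-KO (log2 2.02 ± 0.22) and fell by 1.55 ± 0.21 on the log2 scale from Atg7-KO to Atg7-KO;p62T352A. The ratio of Cybb to Cyba per kilobase of transcript was 0.268 ± 0.0753 in cont. mice, 0.613 ± 0.0418 in Atg7-KO mice and 0.320 ± 0.108 in Atg7-KO;p62T352A mice (mean ± SD, n = 3 each). Atg7-KO and cont. mice did not overlap in that ratio, and p was 0.1 in a two-sided exact permutation test, which cannot go lower with 3 mice on each side. Of 4 such ratios Cybb to Itgb2 gave the same p (1.32 ± 0.145 in cont., 2.497 ± 0.215 in Atg7-KO), and Tyrobp to Fcer1g (1.10 ± 0.431 and 1.37 ± 0.0298) and Itgb2 to Itgam (11.2 ± 2.89 and 9.18 ± 0.501) gave 0.4 in the exact permutation test. Adjusted over the 4 by Benjamini-Hochberg, the permutation p was 0.2 for both ratios of Cybb and 0.4 for the others. The share of all gene pairs without overlap in such a ratio was not determined.

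**Figure D1:**
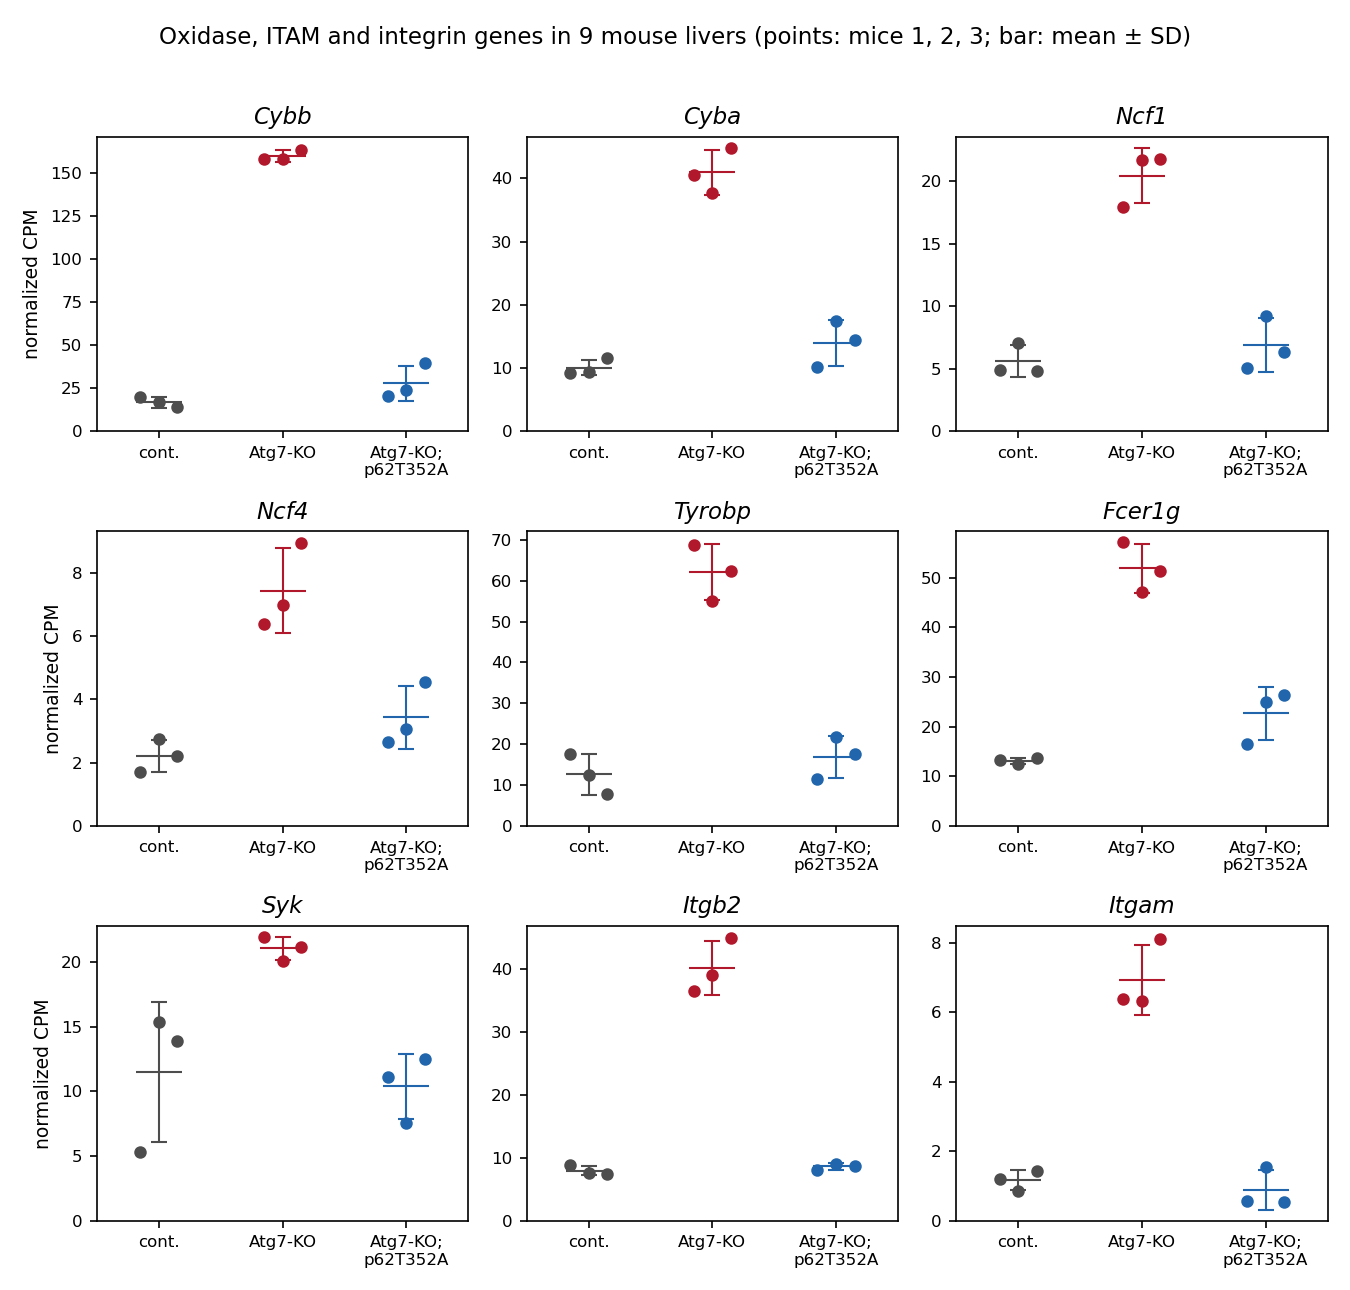
Level of each of the 9 genes in normalized CPM (vertical axes, each from 0) in the 3 mice of each genotype; points are mice in the order 1, 2 and 3, and bars give the mean ± SD. In all 9 panels the 3 Atg7-KO mice lie above the other 6, for example at 158 to 164 against at most 39.5 for Cybb and at 20.1 to 21.9 against at most 15.3 for Syk.

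The cytosolic subunits moved in the same direction as the membrane subunits. Ncf1 encodes p47phox, the organizer that bridges the cytosolic complex to p22phox. It had 4.93, 7.09 and 4.84 normalized CPM in cont. mice, 17.9, 21.7 and 21.8 in Atg7-KO mice and 5.07, 9.25 and 6.33 in Atg7-KO;p62T352A mice. The Atg7-KO range was separate and the others overlapped. Ncf1 rose 3.64-fold in Atg7-KO (log2 1.86 ± 0.26) and was 2.97-fold higher there than in Atg7-KO;p62T352A. Ncf4 encodes p40phox, which binds a membrane lipid on phagosomes. Its level was 1.72, 2.74 and 2.20 in cont. mice, 6.38, 6.99 and 8.96 in Atg7-KO mice and 2.64, 3.08 and 4.57 in Atg7-KO;p62T352A mice. Again only Atg7-KO mice stood apart, with a rise of 3.38-fold (log2 1.76 ± 0.29) and a fall by 1.11 ± 0.28 on the log2 scale in Atg7-KO;p62T352A. Of the 75-base stretches of Ncf1 transcripts, 5.44% also occur in Gtf2ird2, which overlaps it on the opposite strand. Since the strand setting of the counting is not given in the sources used here, reads from that overlap cannot be told apart.

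Partners of the oxidase outside the 9 genes were read from a list of which 15 of 20 were tested. In Atg7-KO livers 10 rose and 1 fell, where 21.6% of all tested genes were called higher and 22.1% lower. Rac2, the small GTPase of the leukocyte oxidase, rose by 1.79 ± 0.18 on the log2 scale in Atg7-KO and fell by 1.41 ± 0.17 from there to Atg7-KO;p62T352A. Pak1, a kinase downstream of Rac, rose by 3.03 ± 0.32 on the log2 scale and Pik3cg, the leukocyte PI3-kinase gamma, by 2.04 ± 0.35. Rac1, which is expressed in most cells and is named after its values were seen, did not pass the test in either comparison (0.60 ± 0.25, FDR = 0.0781, and -0.66 ± 0.25, FDR = 0.0516, edgeR). Nox4, an oxidase of other cells that needs no cytosolic activator, ran the other way, with 71.5, 32.0 and 14.2 in cont. mice, 8.12, 2.88 and 2.86 in Atg7-KO mice and 42.6, 16.8 and 16.1 in Atg7-KO;p62T352A mice. In Atg7-KO it fell by 3.10 ± 0.68 on the log2 scale (FDR = 0.00509, edgeR). Cybc1, which assists the folding of NOX2, had no row under that symbol.

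Tyrobp, also called DAP12, is the adaptor of TREM2 and other activating receptors and lies on chr7:30413760-30417585. Its level was 17.5, 12.6 and 7.69 normalized CPM in cont. mice, 68.9, 55.1 and 62.5 in Atg7-KO mice and 11.4, 21.6 and 17.5 in Atg7-KO;p62T352A mice. Cont. and Atg7-KO;p62T352A mice overlapped, and the 3 Atg7-KO mice lay above both. The rise in Atg7-KO was 4.89-fold (log2 2.29 ± 0.32) and the fall in Atg7-KO;p62T352A was by 1.88 ± 0.31 on the log2 scale. Against cont. the difference in Atg7-KO;p62T352A was 0.41 ± 0.31 (FDR = 0.425, edgeR), and it was called without the mice numbered 1 (0.94, FDR = 0.0312).

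Fcer1g encodes the Fc receptor gamma chain, which serves activating Fc receptors and several C-type lectins, and lies on chr1:171229572-171234365. It had 13.4, 12.4 and 13.6 normalized CPM in cont. mice, 57.1, 47.2 and 51.3 in Atg7-KO mice and 16.6, 25.0 and 26.4 in Atg7-KO;p62T352A mice. The 3 groups did not overlap at all. Fcer1g rose 3.95-fold in Atg7-KO (log2 1.98 ± 0.20) and fell by 1.19 ± 0.20 on the log2 scale from there to Atg7-KO;p62T352A. It was the single member called between Atg7-KO;p62T352A and cont. (0.79 ± 0.20, 1.73-fold, FDR = 0.0341, edgeR), where 6.25% of all tested genes were called higher and 5.34% lower. That call was lost without cont. mouse 2 or 3, without any 1 Atg7-KO mouse, and without Atg7-KO;p62T352A mouse 2 or 3 (FDR up to 0.124), although the log2 difference stayed at 0.66 or more. It was also lost with glmTreat against a fold change of 1.5 (FDR = 0.437, edgeR), with only these 2 genotypes in the fit (0.154) and with a replicate block for the mouse numbers (0.0708). Without all mice numbered 1 it held (0.98, FDR = 0.0082, edgeR).

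Syk encodes the tandem SH2 kinase recruited by both adaptors and lies on chr13:52583173-52648792. Its normalized CPM was 5.27, 15.3 and 13.8 in cont. mice, 21.9, 20.1 and 21.1 in Atg7-KO mice and 11.1, 7.57 and 12.5 in Atg7-KO;p62T352A mice. Every Atg7-KO mouse exceeded every other mouse, but cont. mouse 1 was well below the other cont. mice, and the smallest gap between cont. and Atg7-KO mice was from 15.3 to 20.1. Syk was the member not called in Atg7-KO against cont. (1.85-fold, log2 0.89 ± 0.35, 95% interval 0.10 to 1.67, FDR = 0.062, edgeR). DESeq2 called it (0.87, FDR = 0.037), as did the edgeR fits with upper-quartile scaling (1.01, FDR = 0.0364), with no filter (0.92, FDR = 0.0486) and without cont. mouse 2 (1.11, FDR = 0.0438). Without the mice numbered 1 the estimate fell to 0.50 (FDR = 0.0993). Between Atg7-KO;p62T352A and Atg7-KO livers Syk was called lower (-1.02 ± 0.35, FDR = 0.0322, edgeR), a call lost without any 1 Atg7-KO mouse and without Atg7-KO;p62T352A mouse 1 or 2 (FDR 0.0662 to 0.109).

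Itgb2 encodes CD18, the beta chain of the leukocyte integrins, and lies on chr10:77530252-77565708. It had 8.77, 7.56 and 7.47 normalized CPM in cont. mice, 36.6, 39.1 and 45.1 in Atg7-KO mice and 8.07, 9.04 and 8.75 in Atg7-KO;p62T352A mice. Cont. and Atg7-KO;p62T352A mice overlapped within a narrow band, and Atg7-KO mice lay well above. With the smallest standard error of the 9, Itgb2 rose 5.06-fold in Atg7-KO (log2 2.34 ± 0.16, FDR = 1.82e-05, edgeR) and fell by 2.22 ± 0.16 on the log2 scale in Atg7-KO;p62T352A. What remained against cont. was 0.12 ± 0.16, with a 95% interval from -0.25 to 0.48.

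Itgam encodes CD11b, the alpha chain that pairs with CD18 to form the complement receptor Mac-1 on neutrophils and monocytes, and lies on chr7:128062640-128118491. Its level was 1.20, 0.851 and 1.43 normalized CPM in cont. mice, 6.38, 6.33 and 8.11 in Atg7-KO mice and 0.571, 1.54 and 0.522 in Atg7-KO;p62T352A mice. The low groups overlapped at 8 to 22 counts per library, so that they could hardly be told apart at this depth, and Atg7-KO mice had 132 to 190 counts. Itgam rose 5.96-fold in Atg7-KO (log2 2.58 ± 0.40) and fell by 2.98 ± 0.40 on the log2 scale in Atg7-KO;p62T352A, the largest fall of the 9. Of its 75-base transcript stretches, 65.2% also occur in Gm49368, an annotated readthrough gene with no row in the table, so the counting may have split or dropped reads of Itgam.

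Across the 9 genes, then, Atg7-KO livers had 8 calls upward and 0 downward against cont., at a background of 21.6% called higher, with a median log2 fold change of 2.02 beside -0.03 over all tested genes. Between Atg7-KO;p62T352A and Atg7-KO livers all 9 were called lower, at a background of 26.2% lower and 24.7% higher, with a median of -1.57 beside 0.00. These 2 comparisons share the Atg7-KO mice. Between Atg7-KO;p62T352A and cont. livers 1 was called higher and 0 lower, at a background of 6.25% higher and 5.34% lower, with a median of 0.41 beside 0.00. That median was 0.19 without Atg7-KO;p62T352A mouse 2, 0.20 without cont. mouse 3 and 0.62 without Atg7-KO;p62T352A mouse 1. There the estimates ran from -0.40 (Itgam, 95% interval -1.38 to 0.58) to 0.79 (Fcer1g, 0.34 to 1.23), and 7 of 9 were above 0. Without the mice numbered 1 the counts were 8, 9 and 3 in the order of the comparisons, the added calls in the last being Cybb and Tyrobp. Of all 14060 genes tested without those mice, 3816, 3884 and 1314 were called in the same directions. Atg7-KO mice lay above all cont. mice for 9 of 9 genes, a separation seen in 29.2% of all tested genes. Atg7-KO;p62T352A mice lay below all Atg7-KO mice for 9 of 9 (36.8% of tested genes) and above all cont. mice for Cybb and Fcer1g (2 of 9, 15.5% of tested genes).

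**Figure D2:**
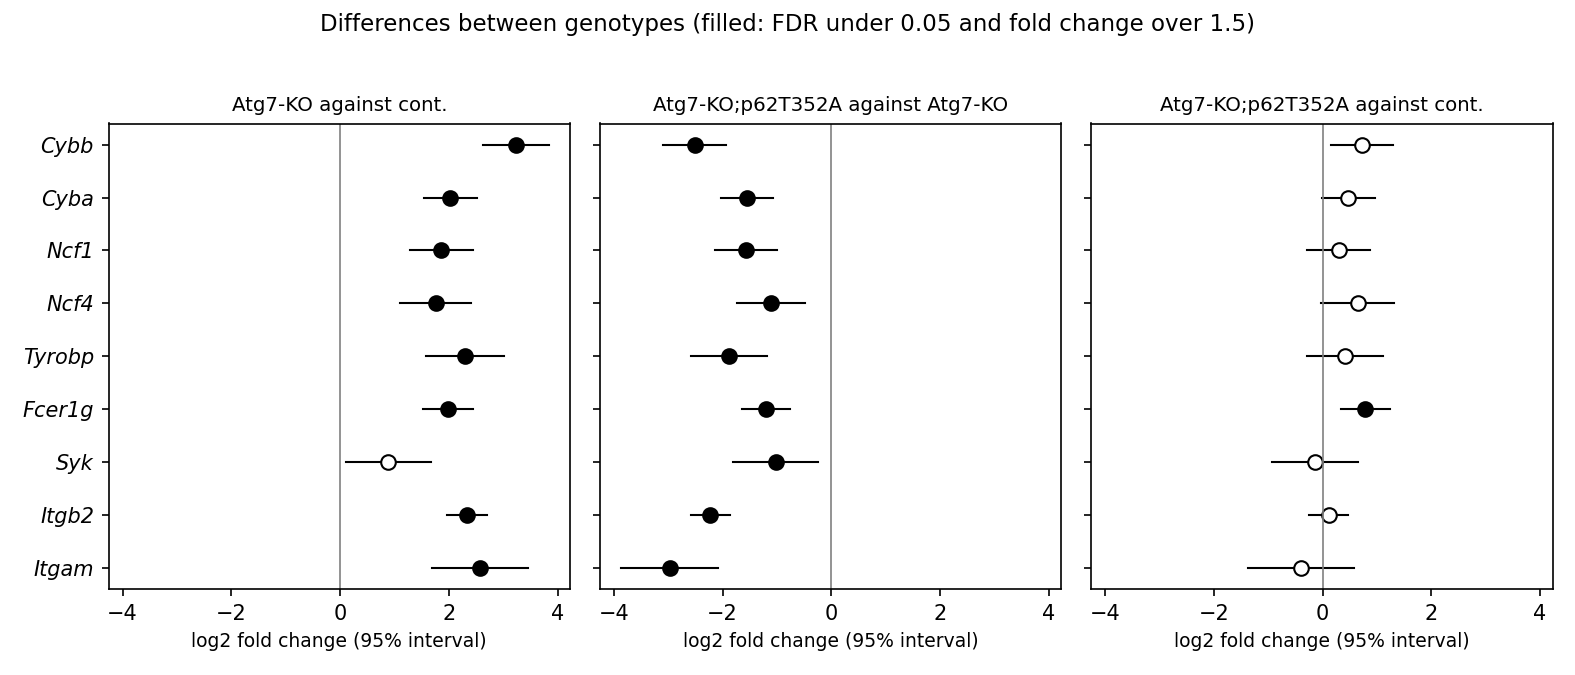
Log2 fold change of each gene (horizontal axes) in the 3 comparisons, with its 95% interval from the edgeR fit; filled points were called at an FDR under 0.05 and a fold change over 1.5. All points lie right of 0 in Atg7-KO against cont., with Syk open, all lie left of 0 in Atg7-KO;p62T352A against Atg7-KO, and Fcer1g alone is filled in Atg7-KO;p62T352A against cont.

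Summed over the 9 genes, the level was 81.1 ± 4.24 normalized CPM in cont. mice, 411 ± 17.7 in Atg7-KO mice and 112 ± 22.9 in Atg7-KO;p62T352A mice (mean ± SD, n = 3 each). By mouse the sum was 82.1, 84.8 and 76.5, then 414, 392 and 427, then 86.1, 118 and 130, so that every Atg7-KO;p62T352A mouse exceeded every cont. mouse, mouse 1 barely and mice 2 and 3 clearly. Cybb supplied 18.1% to 24.4% of the sum in cont. mice, 38.2% to 40.3% in Atg7-KO mice and 20.1% to 30.3% in Atg7-KO;p62T352A mice. Per kilobase of transcript the order was led by the adaptors. In cont. livers Tyrobp stood at 21.1 ± 8.24 and Fcer1g at 19.2 ± 0.954 CPM per kilobase, within each other's spread, followed by Cyba at 13.6 ± 1.69. Cybb (3.55 ± 0.647), Itgb2 (2.67 ± 0.243), Syk (2.14 ± 1.01), Ncf1 (1.95 ± 0.443) and Ncf4 (1.52 ± 0.350) formed a lower group in which Syk overlapped its neighbours, and Itgam was lowest at 0.248 ± 0.0622. In Atg7-KO livers Tyrobp (104 ± 11.6) and Fcer1g (75.9 ± 7.31) were followed by Cyba at 55.1 ± 4.79 and Cybb at 33.6 ± 0.690. Syk, sixth in cont., was eighth in Atg7-KO (3.92 ± 0.170) and in Atg7-KO;p62T352A livers (1.93 ± 0.471).

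Mice of one genotype did not rank alike for the different genes. Over the 9 mice the 36 pairs of genes had Pearson correlations of log2 CPM from 0.54 to 0.97 (median 0.92), which the genotypes dominate. Taken as deviations from the genotype means the correlations ran from -0.66 to 0.80 (median 0.33), and 10 of 36 were below 0. These are descriptions over 9 livers that share libraries and depth. In cont. mouse 1, for example, Tyrobp was above its genotype mean by 0.55 on the log2 scale while Syk was below it by 0.96.

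To set the 9 genes against leukocyte RNA in general, each was divided by Ptprc (CD45, found on all nucleated blood cells) in the same library. Ptprc had 10.6, 17.3 and 17.9 normalized CPM in cont. mice, 49.9, 49.7 and 52.9 in Atg7-KO mice and 15.9, 12.7 and 16.8 in Atg7-KO;p62T352A mice, with a rise of 1.74 ± 0.22 in Atg7-KO. Relative to it, Cybb was higher in Atg7-KO than in cont. by 1.48 on the log2 scale and Itgam by 0.83, and Syk was lower by 0.76, each without overlap between the mice. The share of all tested genes without overlap in this ratio was not determined. In normalized CPM itself, 29.2% of tested genes lay higher and 26.3% lower without overlap. For the other 6 genes the mice overlapped, with differences from -0.02 (Ncf4) to 0.60 (Tyrobp). For the 3 without overlap the two-sided exact permutation p was 0.1, its lowest possible value here, and 0.3 after Benjamini-Hochberg adjustment over the 9. The median difference was 0.25, and it was 0.46 without cont. mouse 1 and 0.15 without cont. mouse 3. Taken against Adgre1 (F4/80, a macrophage surface marker) instead, the median was -0.89, since Adgre1 itself had 24.5, 11.3 and 4.40 in cont. and 79.2 to 82.8 in Atg7-KO mice.

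**Figure D3:**
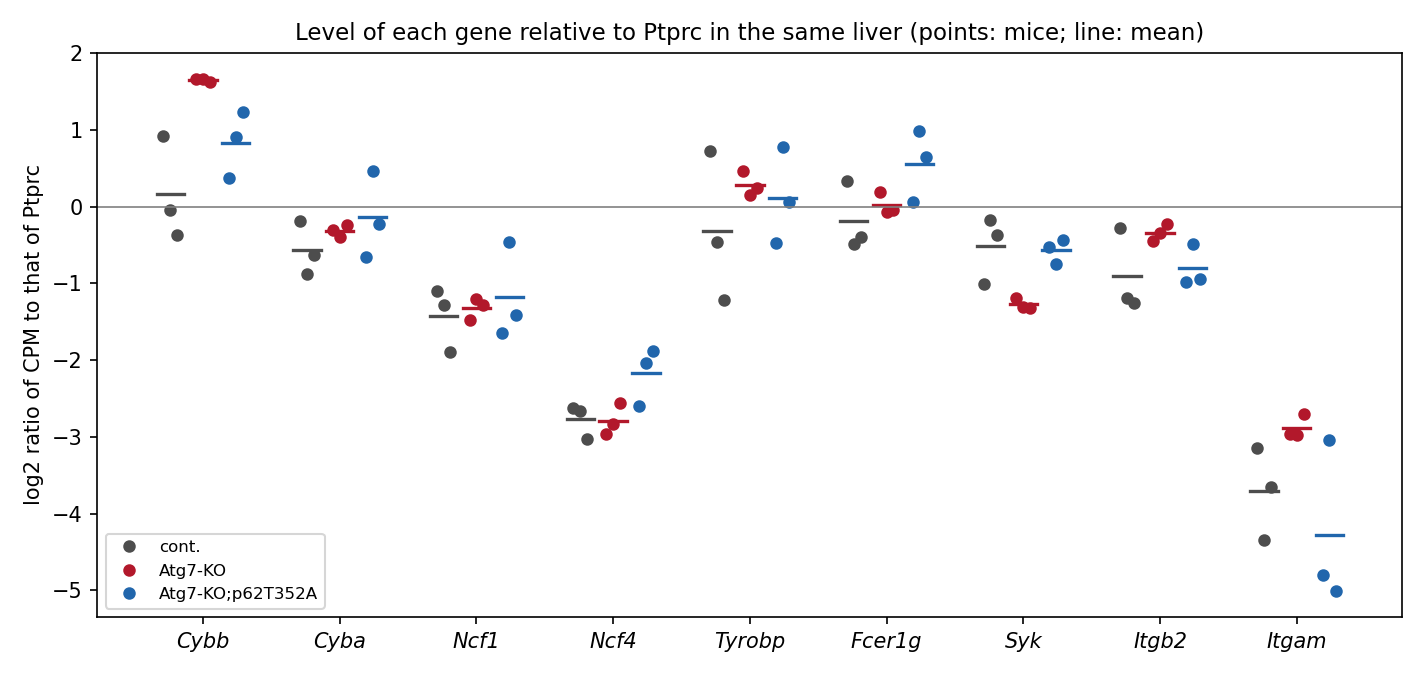
Log2 ratio of each gene's normalized CPM to that of Ptprc in the same liver (vertical axis), with 1 point per mouse and a line at the mean of each genotype. Atg7-KO mice lie above all cont. mice for Cybb and Itgam, below them for Syk, and their ranges overlap for the other 6 genes. The share of all tested genes without overlap in this ratio was not determined.

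The other genes of the pathway were taken from 5 lists. Of 107 listed genes 95 were tested, and 59 rose and 7 fell in Atg7-KO livers, with a median log2 fold change of 1.24, where 21.6% of all tested genes were called higher and 22.1% lower. In a fit of cont. and Atg7-KO;p62T352A mice alone only 87 passed the filter on low counts. Some of the 95 therefore entered through their level in Atg7-KO mice, which favours rises among them. The 7 that fell became 12 without cont. mouse 1, 4 without cont. mouse 2 or 3 or Atg7-KO mouse 1, and 3 without Atg7-KO mouse 2 or 3, while those that rose stayed between 49 and 62 when single mice were left out. In Atg7-KO;p62T352A livers 57 were lower than in Atg7-KO and 3 were higher (median -1.16), at a background of 26.2% lower and 24.7% higher. The 3 became 7 without cont. mouse 1 and 2 without any 1 Atg7-KO or Atg7-KO;p62T352A mouse. Between Atg7-KO;p62T352A and cont. 5 were called in each direction (median 0.03), near the background of 6.25% higher and 5.34% lower.

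Among the receptors that use Tyrobp or Fcer1g, 16 of 22 were tested, 12 rose in Atg7-KO and 0 fell, and 13 were lower in Atg7-KO;p62T352A than in Atg7-KO. Trem2, a lipid-sensing receptor that signals through Tyrobp, had 0.516, 0.567 and 0.550 normalized CPM in cont. mice, 16.6, 14.7 and 13.6 in Atg7-KO mice and 3.43, 7.00 and 7.70 in Atg7-KO;p62T352A mice. It rose 27.3-fold in Atg7-KO and was called higher in Atg7-KO;p62T352A than in cont. (log2 3.47 ± 0.36, FDR = 0.00322, edgeR), the only receptor of the list that was. Clec7a (dectin-1, a fungal glucan receptor) rose 14.7-fold, from 3.12 to 5.73 in cont. mice to 55.0 to 70.5 in Atg7-KO mice. The activating Fc receptors Fcgr1, Fcgr3 and Fcgr4, which depend on Fcer1g, rose by 2.79 ± 0.23, 2.39 ± 0.21 and 2.59 ± 0.37 on the log2 scale. Cd300lb (2.91 ± 0.38) and Clec4n (dectin-2, 2.86 ± 0.32) were the next largest rises among receptors with a mean of at least 1 normalized CPM. Fcer1a, the mast cell receptor chain, had no count in any mouse.

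Among kinases and other parts of the signalling chain all 32 listed genes were tested, 17 rose in Atg7-KO and 4 fell, and against Atg7-KO 15 were lower and 1 higher in Atg7-KO;p62T352A. Of the Src family kinases, Lyn rose by 1.04 ± 0.15, Fgr by 1.57 ± 0.23 and Src itself by 2.64 ± 0.22, while Fyn, named after its values were seen, did not pass the test (-0.32 ± 0.33, FDR = 0.451, edgeR). Downstream of Syk, Btk rose by 1.59 ± 0.27 and Plcg2, the phospholipase of myeloid and B cells, by 1.83 ± 0.23, while its relative Plcg1 fell by 0.87 ± 0.29 on the log2 scale. Hcst (DAP10, a partner of Tyrobp without an ITAM) rose by 1.45 ± 0.44, a call at levels of 0.740 to 1.15 normalized CPM in Atg7-KO mice that was lost without cont. mouse 2 or 3 and without Atg7-KO mouse 1 or 3 (FDR 0.0595 to 0.0833, edgeR), and Blnk, an adaptor best known from B cells, by 2.39 ± 0.39. Zap70, the relative of Syk in T cells, went the other way with 12.3, 13.4 and 25.3 normalized CPM in cont. mice, 2.76, 3.12 and 2.99 in Atg7-KO mice and 14.6, 26.2 and 18.1 in Atg7-KO;p62T352A mice, a fall by 2.51 ± 0.33 on the log2 scale (FDR = 0.000335, edgeR). The T cell receptor chain Cd3e was at 0.401 to 1.43 in cont. and 1.55 to 2.30 in Atg7-KO mice and rose by 1.47 ± 0.50. Tec and Malt1 were the other genes of this list that fell, named, like Plcg1 and Cd3e, after their values were seen. Blnk was not called lower in Atg7-KO;p62T352A than in Atg7-KO livers (-0.19 ± 0.34, FDR = 0.664, edgeR). In Atg7-KO;p62T352A livers it was called higher than in cont. (2.20 ± 0.39, FDR = 0.0108, edgeR).

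Inhibitory receptors and phosphatases, which oppose ITAM signals, mostly rose as well, with 10 of 16 tested genes higher in Atg7-KO livers and 0 lower, and 13 were lower in Atg7-KO;p62T352A than in Atg7-KO. Sirpa, which binds CD47, had 20.4, 20.0 and 25.3 normalized CPM in cont. mice, 115, 98.5 and 109 in Atg7-KO mice and 38.5, 31.7 and 44.7 in Atg7-KO;p62T352A mice, and was called higher than cont. there (0.81 ± 0.18, FDR = 0.0235, edgeR), a call lost without cont. mouse 2, without any 1 Atg7-KO mouse and without Atg7-KO;p62T352A mouse 1 or 3 (FDR 0.0517 to 0.09). Clec4a2 (2.73 ± 0.48), Clec12a (2.59 ± 0.35), Cd300a (2.25 ± 0.30) and the lipid phosphatase Inpp5d (1.54 ± 0.24) rose in Atg7-KO. Pirb (0.78 ± 0.35, FDR = 0.0958), the phosphatase Ptpn6 (0.56 ± 0.27, FDR = 0.111) and the inhibitory Fc receptor Fcgr2b (0.20 ± 0.19, FDR = 0.425) did not pass edgeR's test there, although Pirb did in the fit with a replicate block for the mouse numbers (0.89, FDR = 0.0359). Fcgr2b was at 50.8 to 54.1 in Atg7-KO and 37.3 to 53.3 in cont. mice, overlapping, in contrast to the separation of its activating counterparts.

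Of the integrin partners 17 of 18 were tested, 11 rose in Atg7-KO and 2 fell, and 8 were lower and 1 higher in Atg7-KO;p62T352A than in Atg7-KO. Itgal (CD11a), the alpha chain that pairs with CD18 on most leukocytes, had 14.2 to 18.5 normalized CPM in cont. mice, 40.7 to 43.7 in Atg7-KO mice and 10.7 to 12.3 in Atg7-KO;p62T352A mice, a rise of 1.35 ± 0.16 on the log2 scale. Itgax (CD11c) rose by 3.10 ± 0.51, Itgav by 1.84 ± 0.36, the talin recruiter Apbb1ip by 1.80 ± 0.21, the integrin activator Fermt3 by 1.34 ± 0.30 and the ligand Icam1 by 1.17 ± 0.24. Rasgrp2, an integrin activator of platelets and lymphocytes, fell by 1.68 ± 0.47, with 9.86 in cont. mouse 1 against 45.0 and 44.7 in the other cont. mice and 8.88 to 12.0 in Atg7-KO mice, so that cont. mouse 1 lay inside the Atg7-KO range, and its call was lost without Atg7-KO mouse 2 or 3 (FDR 0.0586 and 0.0531, edgeR). Cyth1 was the other gene that fell, named after its value was seen.

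**Figure D4:**
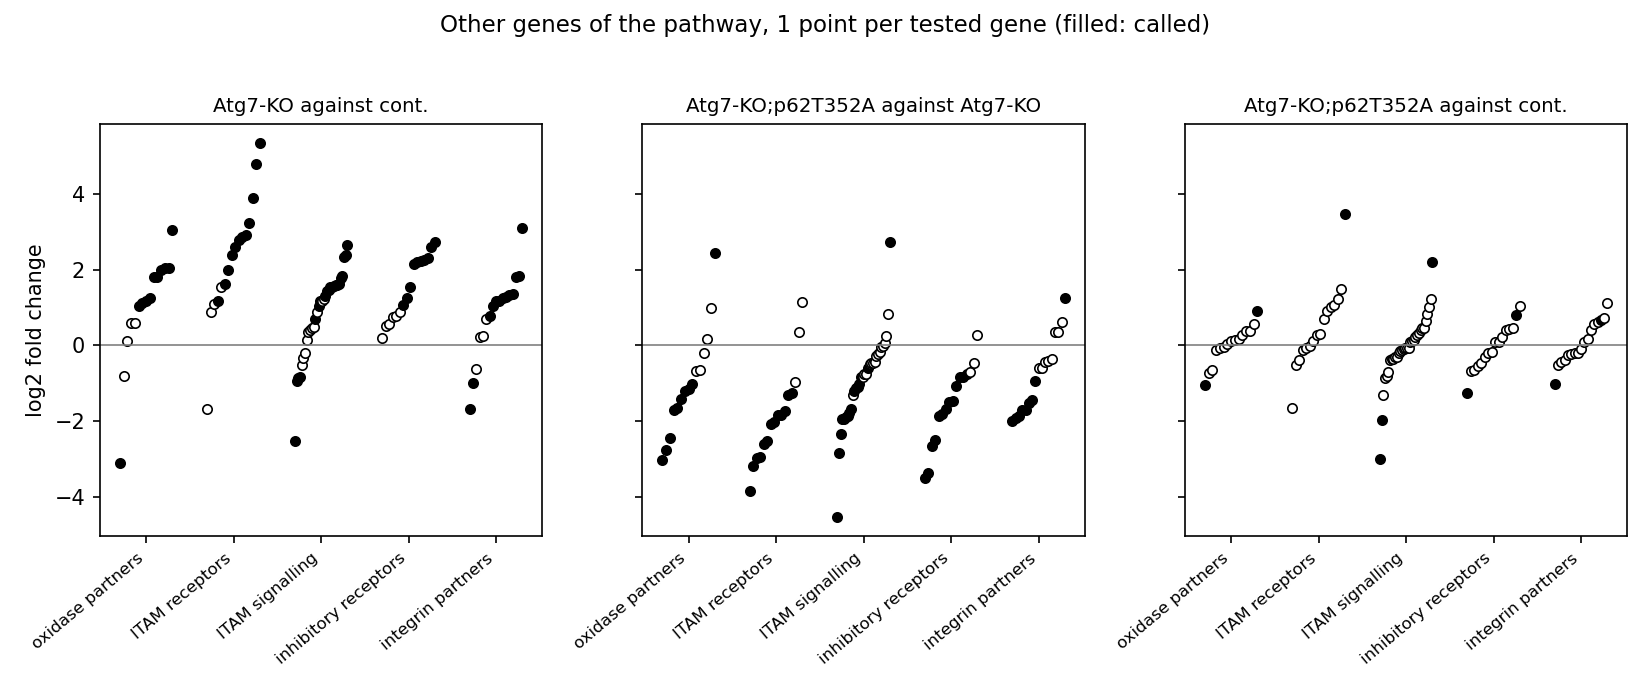
Log2 fold change (vertical axis) of each tested gene of the 5 pathway lists in the 3 comparisons, sorted within each list; filled points were called. Most points lie above 0 in Atg7-KO against cont. (59 called higher, 7 lower), most below 0 in Atg7-KO;p62T352A against Atg7-KO (57 lower, 3 higher), and most are open near 0 in Atg7-KO;p62T352A against cont. (5 in each direction).

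Marker lists of the cells that could carry these genes were read in the same libraries. All 7 pan-leukocyte markers rose in Atg7-KO and all 7 were lower in Atg7-KO;p62T352A, with a summed level of 174, 137 and 134 normalized CPM in cont. mice, 490, 462 and 498 in Atg7-KO mice and 129, 168 and 159 in Atg7-KO;p62T352A mice (most abundant gene Lcp1). All 10 macrophage markers did the same, at 429, 295 and 251, then 1807, 1799 and 1889, then 324, 453 and 445 (most abundant Mpeg1). Csf1r, the macrophage growth factor receptor, rose by 1.57 ± 0.21 and Spi1, the myeloid transcription factor PU.1, by 1.83 ± 0.27. The 8 markers of recruited macrophages all rose, from a sum of 74.9, 45.2 and 55.9 in cont. to 1290, 1202 and 1112 in Atg7-KO, with 160, 202 and 264 in Atg7-KO;p62T352A mice (most abundant Spp1), and 5 of the 8 were called higher in Atg7-KO;p62T352A than in cont. Most of that sum was Spp1, which bile duct cells are also known to express. Without it, a sum added after the values were seen, the other 7 stood at 31.9, 20.8 and 22.1 in cont. mice, 324, 328 and 340.1 in Atg7-KO mice and 25.1, 48.5 and 36.9 in Atg7-KO;p62T352A mice. Cd9, a membrane protein of many cell types, supplied most of that sum in every mouse but Atg7-KO;p62T352A mouse 3 (15.3). The 6 genes left without Spp1 and Cd9 summed to 3.61, 3.21 and 3.74 in cont. mice, 74.1, 75.7 and 69.1 in Atg7-KO mice and 10.00, 13.7 and 21.7 in Atg7-KO;p62T352A mice. With Cd9 in the sum cont. and Atg7-KO;p62T352A mice overlapped, and without it all 3 groups were separate. Of the 8 markers, Chil3 had 3, 1 and 1 counts in cont., 56, 29 and 34 in Atg7-KO and 1, 1 and 4 in Atg7-KO;p62T352A mice. It passed the filter through Atg7-KO mice alone, so its calls add no support. Of 7 Kupffer cell markers 3 rose and 2 fell in Atg7-KO, and 3 were higher and 3 lower in Atg7-KO;p62T352A than in Atg7-KO. Their summed level was 300.4, 282 and 241 in cont. mice and 575, 512 and 568 in Atg7-KO mice, with 157, 320 and 233 in Atg7-KO;p62T352A mice. Clec4f, a lectin of Kupffer cells and over the 9 mice the most abundant of them, had 107, 151 and 134 in cont. mice, 192, 172 and 182 in Atg7-KO mice and 87.5, 167 and 124 in Atg7-KO;p62T352A mice (0.48 ± 0.24, FDR = 0.128, edgeR). In Atg7-KO mice Cd5l stood above Clec4f (243, 214 and 247), with a rise of 1.75 ± 0.30 on the log2 scale. How far these marker levels account for those of the 9 genes was not tested.

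Markers of other leukocytes were low. The 10 neutrophil markers in the table summed to 5.16, 11.4 and 10.8 normalized CPM in cont. mice, 21.2, 12.9 and 17.1 in Atg7-KO mice and 8.71, 7.92 and 10.9 in Atg7-KO;p62T352A mice, less than Cyba alone in each Atg7-KO mouse, with the Atg7-KO mice above the rest by a small margin. Only 5 of them were tested, 3 rose in Atg7-KO, among them S100a8 (2.03 ± 0.47), and the most abundant over the 9 mice, Csf3r, did not pass the test (0.19 ± 0.45). Ngp, which also rose, had 1, 2 and 0 counts in cont. and 49, 28 and 28 in Atg7-KO mice. With 1, 1 and 2 counts in Atg7-KO;p62T352A mice, it passed the filter through Atg7-KO mice alone, so its call adds no support. T and NK cell markers summed to 5.58 to 6.70 in cont. and 14.5 to 16.9 in Atg7-KO (3 of 6 tested rose, most abundant over the 9 mice Nkg7), and B and plasma cell markers to 6.93 to 18.2 and 7.03 to 10.6 (0 rose, 1 fell). In each Atg7-KO mouse Cd8a was above Nkg7 (4.01, 4.64 and 5.12 against 3.72, 4.36 and 4.86). In cont. mice Cd4 had a higher mean than Nkg7 (2.27 against 0.916). Dendritic cell markers summed to 5.67, 31.0 and 27.7 in cont. and 12.2 to 14.5 in Atg7-KO mice (2 of 6 rose, while the most abundant, Clec9a, did not pass the test, at -1.67 on the log2 scale, FDR = 0.062, edgeR).

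Of the remaining lists, hepatocyte markers moved against the 9 genes, with 141394, 90927 and 82216 in cont. mice, 48368, 49308 and 45931 in Atg7-KO mice and 123509, 148778 and 123625 in Atg7-KO;p62T352A mice (5 of 7 fell in Atg7-KO, most abundant Alb). Stellate cell markers (5 of 7, most abundant Dcn), cholangiocyte markers (4 of 5, most abundant Sox9) and proliferation markers (4 of 4, most abundant Mki67) rose in Atg7-KO, and 4 of 7, 3 of 5 and 4 of 4 of them were lower in Atg7-KO;p62T352A. Dcn and Sox9 were not lower there (log2 -0.01 and 0.26 against Atg7-KO) and were called higher than cont. Col3a1, whose mean in Atg7-KO mice was above that of Dcn (345 against 285), was among the 4 stellate markers that were lower (log2 -2.56 ± 0.33). The cholangiocyte marker Cldn4 had 4, 1 and 0 counts in cont., 146, 275 and 235 in Atg7-KO and 3, 5 and 11 in Atg7-KO;p62T352A mice. It passed the filter through Atg7-KO mice alone, so its calls add no support. In summed level the stellate, cholangiocyte and proliferation lists also separated Atg7-KO mice from all others. The proliferation markers went from a sum of 4.30, 8.42 and 12.3 in cont. to 62.7, 103 and 110 in Atg7-KO mice. Of 5 sinusoidal endothelial markers 2 rose and 1 fell (most abundant over the 9 mice Stab2), and of 5 erythroid markers 2 fell (most abundant over the 9 mice Hba-a2). In Atg7-KO mice Hba-a1 was above Hba-a2 (192, 215 and 169 against 142, 105 and 104).

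**Figure D5:**
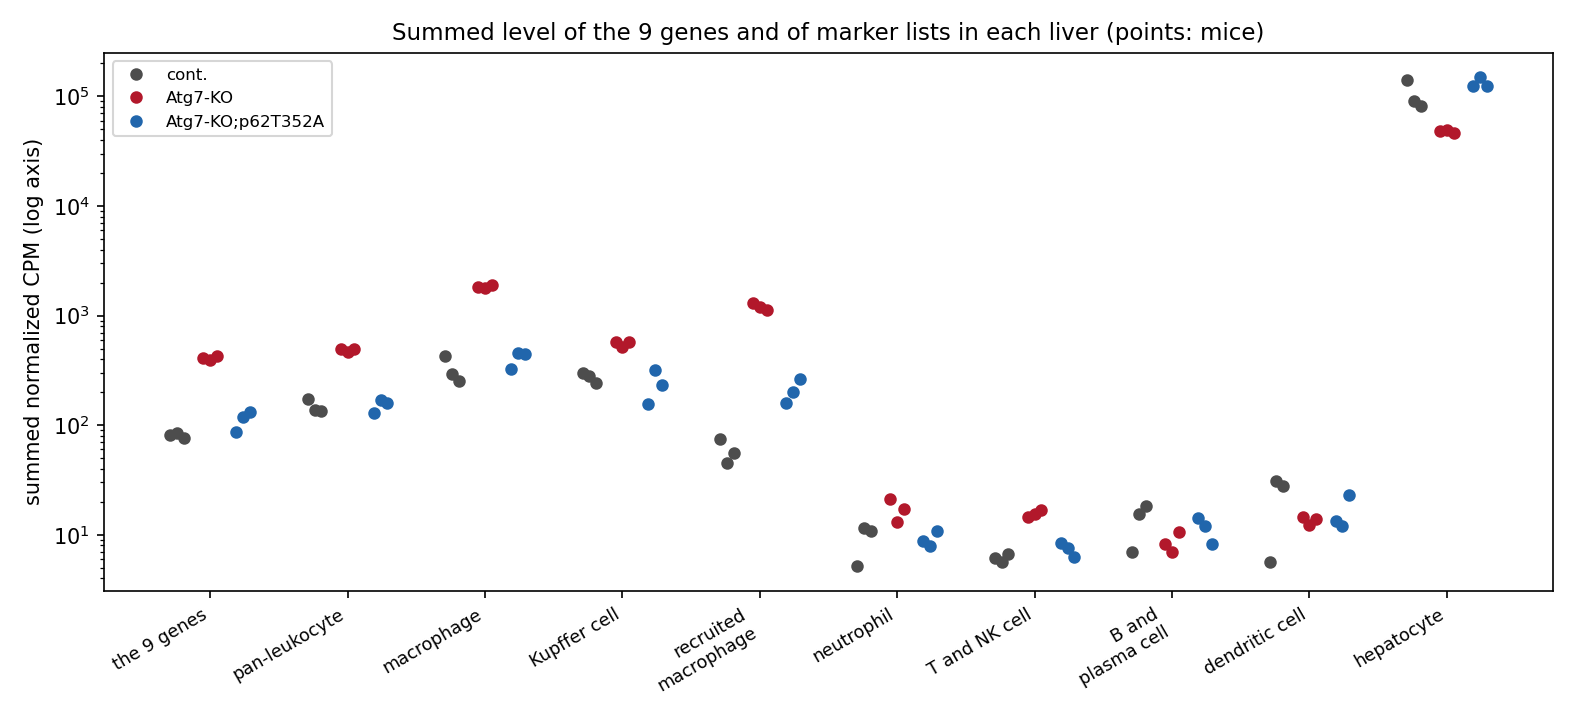
Summed normalized CPM (log axis) of the 9 genes and of 9 marker lists in each liver, with 1 point per mouse. The sum of the 9 genes separates Atg7-KO mice (392 to 427) from the rest (at most 130), as do the pan-leukocyte, macrophage, Kupffer cell, recruited macrophage and T and NK cell lists. Neutrophil markers separate by little (12.9 to 21.2 against at most 11.4), and hepatocyte markers are lowest in Atg7-KO mice.

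Among 12811 other tested genes with a mean of at least 1 normalized CPM, the 8 whose log2 CPM followed the mean z-score of the 9 genes most closely over the 9 mice included Uhrf1, Clspn, Adamtsl1, Gltp, Snn, Tekt5 and Gipc2, with Pearson correlations from 0.997 (Uhrf1) to 0.993 (Gipc2). These genes were high in Atg7-KO mice alone, Uhrf1 at a mean of 9.31 normalized CPM against 0.901 in cont. and 1.18 in Atg7-KO;p62T352A, and Tekt5 at 131 against 0.106 and 0.467. With 3 groups of which 1 stands apart, such correlations mostly rank genes by how cleanly they separate that group.

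Start sites of the genes were searched for the core that PU.1 binds, GAGGAA on either strand, since this factor is known to drive several of them in myeloid cells. RefSeq promoters (GRCm38.p6, 250 bases before to 50 after a start) matched 6 of the 9 genes, Cybb, Cyba, Ncf1, Fcer1g, Syk (with 2 starts) and Itgam. The core lay in the windows of Itgam (3 matches), Cybb (1) and 1 start of Syk (1), and in 28.3% of 32851 promoters overall. The antioxidant response element core TGACNNNGC, bound by NRF2, matched none of the windows of these genes and 12.4% of all promoters, on either strand. The stretch from 80 bases before to 20 after the start is shown for the 3 genes with a match, with matches in capitals (TTCCTC is the core on the other strand), at chr7:128062560-128062659 on the plus strand for Itgam, chr13:52596802-52596901 on the plus strand for Syk and chrX:9469305-9469404 on the minus strand for Cybb.
Itgam: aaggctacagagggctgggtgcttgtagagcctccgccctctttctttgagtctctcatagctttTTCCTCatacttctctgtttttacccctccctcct
Syk: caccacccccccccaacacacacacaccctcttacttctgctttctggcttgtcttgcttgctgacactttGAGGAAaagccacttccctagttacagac
Cybb: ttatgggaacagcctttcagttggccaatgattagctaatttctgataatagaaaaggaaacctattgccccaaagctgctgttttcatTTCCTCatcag
A match is a description of letters and no evidence of binding.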

How the data were processed

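Liver poly(A) RNA of 3 cont., 3 Atg7-KO and 3 Atg7-KO;p62T352A mice was analysed. The authors deposited RSEM expected counts per gene without library scaling, made from 75-base single-end reads with Trim Galore, STAR and RSEM on mm10. Versions, annotation and strand setting are not given in the sources used here, and RNA extraction is described differently in the labels (RNeasy) and the methods (TRIzol). Columns were matched to mice by genotype and number. Values were rounded to whole numbers (8.34% were not whole).

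Genes were kept by edgeR's filterByExpr, scaled by TMM and fitted over all 9 mice in 1 quasi-likelihood model (edgeR 4.0.16, R 4.3.3). A gene was called at a Benjamini-Hochberg FDR under 0.05 over all tested genes and a fold change over 1.5. Standard errors were derived from the F statistic, and log2 CPM used a prior count of 2. Transcript length is the longest in GENCODE vM21. Replicates are separate mice. Exact permutation tests were two-sided. Python 3.11.15 was used for the rest. The steps were tested on simulated data.

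Alternatives were DESeq2 1.42.0, its size factors in edgeR, upper-quartile scaling, all genes with no filter, a minimum of 10 counts per gene in each mouse, the mouse number as a replicate block, FDR alone, glmTreat, a fit of only the 2 genotypes compared, the mice numbered 1 left out and each mouse left out.

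The 9 genes, the lists and the tests were chosen with earlier results of these data known. Genes named singly were the 9, listed partners and checks, the 4 largest changes per pathway list and the most abundant gene per marker list over all 9 mice. That gene need not lead within each genotype. Cd5l, Cd8a, Cd4, Chil3, Cldn4, Col3a1, Hba-a1 and Ngp were named after their values were seen. Cybc1, Ly6g, Trac and Fcn3 had no row under those symbols. A few listed genes are not reported here by name.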

Additional observations from a re-analysis of the deposited data

How the results depend on the processing

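Called changes of the 9 genes kept their direction under the alternatives run. In Atg7-KO against cont. 7 to 9 were called under them, and in Atg7-KO;p62T352A against Atg7-KO 8 or 9, the 7 being a filter that removed Itgam and so tested 8 genes. Over all tested genes, the calls higher in the first ran from 2138 of 13922 (glmTreat) to 3984 of 14207 (without cont. mouse 1). The calls lower in the second ran from 2561 of 13922 (glmTreat) to 4141 of 13922 (upper-quartile scaling). In Atg7-KO;p62T352A against cont. the count of 1 became 0 with the replicate block, with glmTreat and with only the 2 genotypes compared, 3 without the mice numbered 1, and 0 to 2 when single mice were left out. The pathway genes called there, 10, became 4 with glmTreat, 2 with only the 2 genotypes compared, 24 without the mice numbered 1, and 5 to 22 when single mice were left out. Without cont. mouse 1 they were 22 and the count over all genes was 3245 in place of 1613. That count was 988 with the replicate block, 253 with glmTreat, 50 with only the 2 genotypes compared, 2975 without the mice numbered 1 and 435 without Atg7-KO;p62T352A mouse 3. In Atg7-KO against cont. and Atg7-KO;p62T352A against Atg7-KO the counts over all genes, 6080 and 7095, became 3855 and 4718 with glmTreat. Among pathway genes lower in Atg7-KO than in cont., 7 became 4 with the replicate block, 3 with glmTreat and 12 without the mice numbered 1. The small estimate of Syk in Atg7-KO;p62T352A against cont., -0.13, ran from -0.49 to 0.093 when single mice were left out, above 0 without cont. mouse 2, cont. mouse 3 or Atg7-KO;p62T352A mouse 2. Likewise Fcgr2b in Atg7-KO against cont. (0.20) ran from -0.007 without cont. mouse 2 to 0.327, and Hcst in Atg7-KO;p62T352A against Atg7-KO (-0.22) from -0.641 to 0.035 without Atg7-KO;p62T352A mouse 3, none of them called. The median difference relative to Ptprc, 0.25, became 0.10 against the pan-leukocyte list and -0.89 against Adgre1. The cause of these changes was not tested.

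Under upper-quartile scaling the median over all genes was -0.13 in place of 0.00 on the log2 scale in Atg7-KO;p62T352A against Atg7-KO, where 9 of the 9 genes stayed lower. Mouse numbers are shared between genotypes, but deviations of same-numbered mice correlated at -0.20 to 0.32 (6 of 9 pairs over 0.1, all between mice numbered 1 or 3), and 5 of 9 mice correlated best with a mouse of their own number, so the numbers were not taken as pairs. With the replicate block 8 and 9 of the 9 genes were called in the comparisons with Atg7-KO. At 8 to 22 counts per library, Itgam in cont. and Atg7-KO;p62T352A mice is limited by depth.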
